A study of Mus musculus with 12 samples.

Results

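The 48 genes described here encode Wnt ligands, frizzled receptors and the proteins that modulate them. They were chosen by name: every protein-coding gene whose symbol opens with Wnt, Fzd, Dkk, Sfrp or Rspo and a number, together with Lrp5, Lrp6, Ror1, Ror2, Znrf3, Rnf43, Axin1, Axin2, Ctnnb1, Dvl1, Dvl2, Dvl3, Nkd1, Nkd2, Wif1, Lef1, Tcf7, Tcf7l1 and Tcf7l2, kept at a minimum of 20 raw counts over 12 libraries. Of 61 names that matched among 29030 genes, 48 met these terms. The other 13 were 2 long non-coding RNAs, Fzd10os and Rspo4os, and 11 genes with 2 to 14 counts in all: Wnt3a, Wnt6, Wnt7b, Wnt8a, Wnt8b, Wnt9b, Dkk1, Dkk4, Rspo4, Sfrp5 and Wif1.

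RNA was sequenced from primary fibroblasts of C57BL/6 mouse heart, grown in serum and given either ethanol as vehicle or 6 µM MCB-613-10-1, a derivative of MCB-613, a small molecule that stimulates steroid receptor coactivators. Cells were collected after 4 h or after 24 h, which gives 4 groups, and 3 libraries were made per group. The study asked how this compound acts on the RNA of cardiac fibroblasts. No age, sex or genetic change was given for the mice. Whether the 3 libraries of a group came from separate cultures or animals is not stated. A p-value here sets a group difference against the scatter of these samples only, and that scatter may be technical. Each library held 25016754 to 34877090 counted reads.

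Wnt proteins are secreted lipid-modified ligands that bind frizzled receptors at the cell surface. With the co-receptors LRP5 and LRP6 they stop the destruction complex, built on axin, from degrading beta-catenin, which then joins TCF and LEF factors at target genes. With ROR receptors they instead act on cell polarity, movement and calcium. Frizzled-related proteins (Sfrp) bind Wnt ligands outside the cell, dickkopfs (Dkk) act on LRP co-receptors, and R-spondins (Rspo) protect frizzleds from the membrane ligases ZNRF3 and RNF43. In the heart, the pathway is known for its roles in development and in fibroblast activation after injury.

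All 8 listed fibroblast markers, among them Col1a1, Pdgfra and Tcf21, were present in every group. Levels are given as CPM, a gene's reads relative to all counted reads of the library, after TMM scaling over the 12 libraries. The summed fibroblast markers were at 9060 to 11450 CPM in vehicle and 3877 to 4191 CPM in treated libraries at 24 h, against 8731 to 9993 and 8763 to 10547 CPM at 4 h. Macrophage and leukocyte markers (6 genes) were at 311.0 to 360.3 CPM in vehicle and 141.3 to 161.0 CPM in treated libraries at 24 h, and at 90.0 to 96.7 and 64.2 to 83.9 CPM at 4 h. Also at 24 h, the sum was 44.4 to 63.1 CPM in vehicle and 15.9 to 17.8 CPM in treated libraries for 6 pericyte and smooth muscle markers. It was 80.8 to 94.5 and 32.0 to 41.8 CPM for 6 epicardial markers, and 43.3 to 52.0 and 44.0 to 45.7 CPM for 7 endothelial markers. For 4 Schwann cell markers it was 1.78 to 2.37 CPM in vehicle and 0.665 to 1.61 CPM in treated libraries. The 7 cardiomyocyte markers summed to 16.4 to 19.5 CPM in vehicle and 5.67 to 8.91 CPM in treated libraries at 24 h, and to 11.1 to 21.9 and 14.8 to 18.1 CPM at 4 h. Most of this was Tnnt2, which fell at 24 h (log2 -1.44 ± 0.16), while Myh6, Myh7, Tnni3, Actc1 and Nppa were under 0.5 CPM in every library. Single markers did not all follow these sums at 24 h. Of 8 fibroblast markers 6 were called lower and 1 higher, and of 6 macrophage and leukocyte markers 5 and 1. Of 6 epicardial markers 3 were lower and 1 higher, and of 7 endothelial markers 4 and 3. Of 5 pericyte and smooth muscle markers tested, 3 were lower and none higher. Over all genes tested at 24 h, 38.0% were lower and 36.7% higher. The part of these markers in the 24 h results below was not tested, and in bulk RNA fewer cells of a type and less RNA per cell cannot be told apart.

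At 4 h the compound moved few of the genes, and at 24 h it moved most of them, mainly downward. Of 43 members tested at 4 h, 2 rose (Axin1 and Dvl2) and 5 fell (Fzd4, Ror1, Fzd2, Fzd6 and Wnt5a), where 7.16% of all 15336 genes tested were called at an adjusted p under 0.05, 3.45% higher and 3.71% lower. Vehicle and treated libraries did not overlap for 16 of the 43, where this held for 29.7% of all genes. Their median log2 fold change was -0.08, beside -0.01 over all genes. Without treated replicate 3 at 4 h, 0 rose and 2 fell, Fzd4 and Ror1. Of 38 members tested at 24 h, 8 rose and 26 fell, where 74.7% of all 15575 genes were called, 36.7% higher and 38.0% lower. The groups did not overlap for 35 of the 38, against 77.4% of all genes. The median was -0.83, beside -0.02 over all genes. Fzd9, Dkk2, Rspo2 and Axin2 passed the filter on low counts at 24 h through their vehicle libraries, so they had to differ, and 10 members had too few reads to be tested. A further choice took the 32 members with a mean of at least 1 FPKM (reads scaled for gene length and depth) in vehicle at 4 h. Of these, 8 were called higher and 21 lower at 24 h, with a median of -0.78. The choice used no 24 h value, but Dkk2 and Fzd9, which passed the filter through vehicle libraries, are among the 32. The share called over all genes at the same FPKM limit was not computed. Without vehicle replicate 2 at 24 h, which was low for several secreted modulators, the counts over members were 9 higher and 28 lower.

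**Figure D1:**
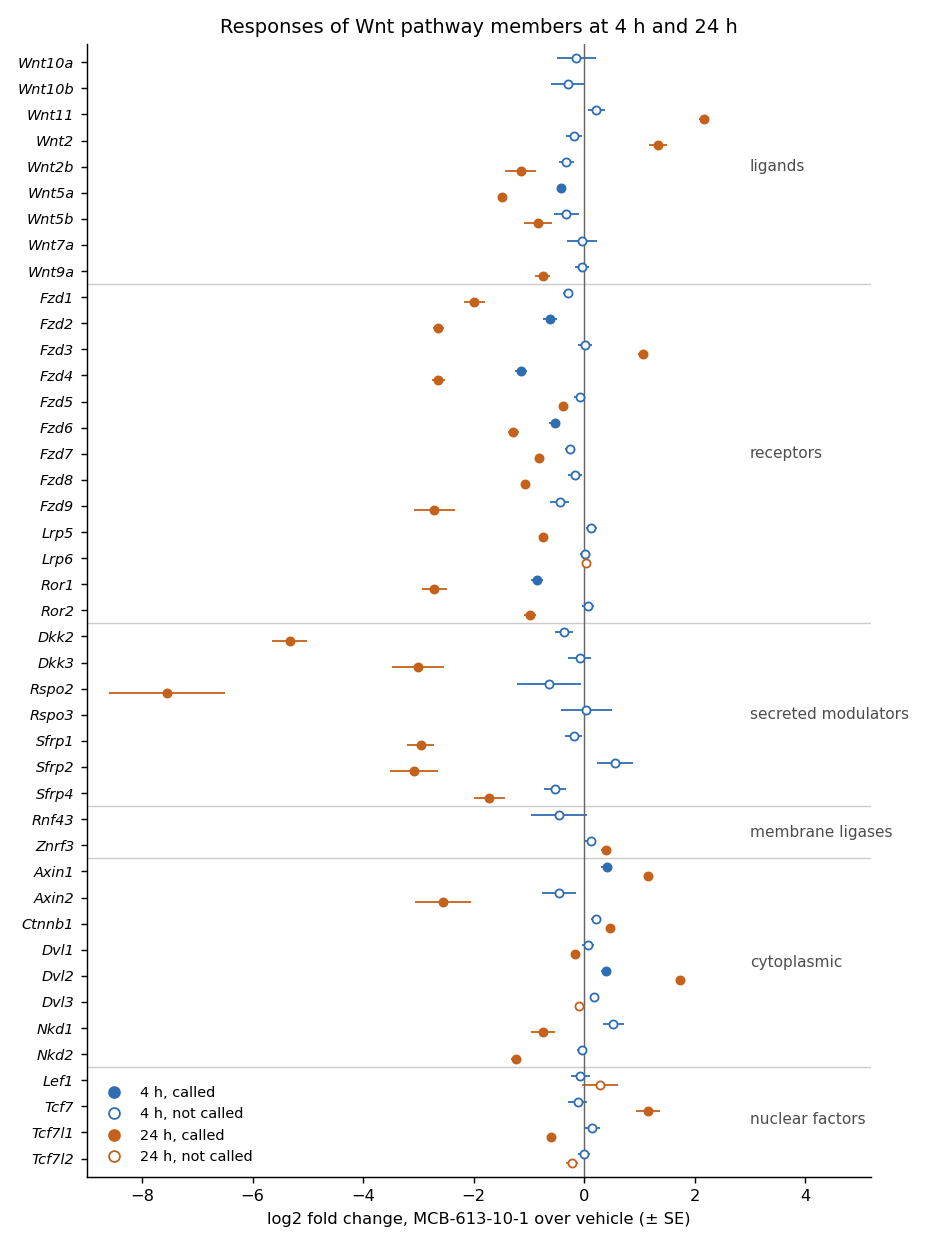
Log2 fold change of treated over vehicle libraries (horizontal axis, with its standard error) for each tested member, grouped by role, at 4 h in blue and 24 h in orange. Filled points passed an adjusted p under 0.05 in edgeR, open points did not. The 24 h points of the secreted modulators all lie left of 0, from -7.55 for Rspo2 to -1.72 for Sfrp4. For Dkk2 and Rspo2 that side was fixed, since both passed the filter through vehicle libraries alone. The Rspo2 value, with 0 counts in treated libraries at 24 h, depends on the prior count of the fit. The 24 h points called to the right of 0 are Wnt11, Wnt2, Fzd3, Axin1, Dvl2, Ctnnb1, Znrf3 and Tcf7.

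Among ligands, Wnt11 and Wnt2 rose at 24 h while Wnt5a, Wnt2b, Wnt5b and Wnt9a fell. The most abundant ligand RNA at 24 h was Wnt5a in vehicle and Wnt11 in treated cells. Wnt11 also led in treated cells at 4 h, at 17.4 ± 1.82 FPKM against 9.84 ± 0.441 FPKM for Wnt5a (SD, n = 3). Wnt11 (ENSMUSG00000015957, chr7:98484319-98504402 in GRCm39) encodes a ligand known mainly for beta-catenin-independent signalling in heart development. RefSeq promoter windows were matched by symbol for 33 of the 48 members, in the build GRCm38.p6. They were searched on both strands for the TCF/LEF core CTTTGAT and for the core of the antioxidant element to which NRF2 binds, TGACNNNGC. No match of one motif overlapped a match of the other. The windows run from 250 bases before to 50 after each start site. The 3 windows below are shown because they belong to the ligand that rose most and to the only other member with a TCF/LEF core, and the 250 bases before the start are printed 5′ to 3′ along the gene's strand, with matches in capitals.
Wnt11, start site A, chr7:98834862-98835111, plus strand: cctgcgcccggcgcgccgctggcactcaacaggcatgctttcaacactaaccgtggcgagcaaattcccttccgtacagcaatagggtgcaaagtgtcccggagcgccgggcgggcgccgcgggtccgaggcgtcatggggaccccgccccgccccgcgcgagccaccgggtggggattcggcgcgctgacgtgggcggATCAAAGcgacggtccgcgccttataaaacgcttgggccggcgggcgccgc
Wnt11, start site B, chr7:98838595-98838844, plus strand: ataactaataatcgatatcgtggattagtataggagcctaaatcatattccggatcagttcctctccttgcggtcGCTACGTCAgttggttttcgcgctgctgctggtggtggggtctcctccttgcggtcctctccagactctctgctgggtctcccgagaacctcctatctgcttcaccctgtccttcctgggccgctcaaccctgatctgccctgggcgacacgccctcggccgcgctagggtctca
Wnt5b, chr6:119449387-119449636, minus strand: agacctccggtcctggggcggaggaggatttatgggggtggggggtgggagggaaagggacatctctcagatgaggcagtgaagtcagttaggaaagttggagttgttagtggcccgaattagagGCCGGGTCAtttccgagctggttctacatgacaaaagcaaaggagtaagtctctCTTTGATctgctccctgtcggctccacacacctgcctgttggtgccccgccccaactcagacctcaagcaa
In window A of Wnt11 the TCF/LEF core stands on the opposite strand (ATCAAAG) and begins at position -51 from the start site, and in window B the antioxidant core stands on the opposite strand (GCTACGTCA) at position -175. Wnt5b, which fell at 24 h, holds both: the antioxidant core on the opposite strand (GCCGGGTCA) at -125 and the TCF/LEF core on the gene's strand at -71. The TCF/LEF core was found in 2 of 33 members, 6.06%, beside 4.29% of 27025 genes and 3.73% of 32851 windows. The antioxidant core was found in 9 of 33 members, 27.3%, beside 14% of genes and 12.4% of windows. Those 9 were Fzd5, Fzd9, Wnt2b, Wnt5b, Wnt16, Wnt11, Ctnnb1, Tcf7l1 and Tcf7l2, and at 24 h they included genes called higher and genes called lower. A match is a stretch of letters, not a measured site.

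Wnt11 was at 51.4, 79.7 and 58.3 CPM in vehicle and 67.5, 81.3 and 70.9 CPM in treated libraries at 4 h, and the groups overlapped. After 24 h it was at 8.37, 8.54 and 9.09 CPM in vehicle and 37.4, 37.4 and 42.7 CPM in treated libraries. Every treated library was thus far above every vehicle library at 24 h and below every library at 4 h. The 24 h difference was 4.49-fold, a log2 fold change of 2.17 ± 0.09 (SE, adjusted p = 1.96e-14 in edgeR). At 4 h it was 0.22 ± 0.15 and not called (adjusted p = 0.416). The 24 h value exceeded the 4 h value by 1.96 ± 0.19 on the log2 scale in the edgeR test of the difference (adjusted p = 2.09e-07).

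Wnt2, a ligand known to act through beta-catenin in heart and lung development, was at 15.6, 16.4 and 13.1 CPM in vehicle and 14.3, 14.5 and 11 CPM in treated libraries at 4 h. At 24 h the values were 3.53, 4.12 and 2.65 CPM in vehicle and 8.66, 9.52 and 7.89 CPM after treatment. The 24 h groups were clear of each other, and as for Wnt11 both lay below the 4 h libraries. Wnt2 rose 2.53-fold at 24 h (log2 1.34 ± 0.16, adjusted p = 4.68e-07), and its response differed from the 4 h one by 1.53 ± 0.22 (adjusted p = 1.20e-05).

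Wnt5a (ENSMUSG00000021994, chr14:28226707-28249405 in GRCm39) encodes the main ligand of ROR receptors. At 4 h it was at 108.9, 102.3 and 100.4 CPM in vehicle and 77.6, 81.6 and 75.5 CPM in treated libraries. The 24 h values were 49.0, 50.8 and 51.7 CPM in vehicle and 18.9, 17.8 and 17.7 CPM in treated libraries. Treated libraries were low at both times without overlap. Wnt5a was the only ligand called at 4 h, where it fell by 0.41 on the log2 scale (SE 0.08, adjusted p = 0.0105, or 0.0921 without treated replicate 3). The fall at 24 h was 2.80-fold (log2 -1.48 ± 0.07, adjusted p = 1.67e-13) and exceeded that at 4 h (difference -1.07 ± 0.10, adjusted p = 4.22e-08).

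Wnt9a was at 11.7, 14.1 and 13.3 CPM in vehicle and 11.9, 12.9 and 13.3 CPM in treated libraries at 4 h. By 24 h it stood at 6.97, 6.63 and 6.74 CPM in vehicle and 4.00, 3.92 and 4.25 CPM in treated libraries. The 24 h groups stood apart, with a log2 fold change of -0.75 ± 0.14 (adjusted p = 0.000116). Wnt2b, close in sequence to Wnt2, was at 9.87, 10.8 and 9.55 CPM in vehicle and 7.56, 8.82 and 7.82 CPM in treated libraries at 4 h. It was at 1.78, 2.97 and 2.65 CPM in vehicle and 1.11, 1.33 and 0.842 CPM in treated libraries at 24 h. Wnt2b thus moved opposite to Wnt2 at 24 h (log2 -1.15 ± 0.28, adjusted p = 0.00105), while its 4 h value of -0.32 ± 0.13 was not called (adjusted p = 0.165). Wnt5b, a relative of Wnt5a, was at 2.41, 3.98 and 2.76 CPM in vehicle and 2.64, 2.41 and 2.25 CPM in treated libraries at 4 h. It was at 2.88, 2.18 and 2.38 CPM in vehicle and 1.36, 1.63 and 1.15 CPM in treated libraries at 24 h. Its 24 h groups did not overlap (log2 -0.84 ± 0.25, adjusted p = 0.00471), and the difference from the 4 h response was not called (-0.51 ± 0.32, adjusted p = 0.189).

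The remaining 6 ligands were near the limit of detection. Wnt10a, Wnt10b and Wnt7a had 218, 191 and 292 counts over the 12 libraries, were tested at 4 h only, and were not called there (log2 -0.14, -0.30 and -0.04). Wnt4, Wnt1 and Wnt16 had 104, 68 and 24 counts and were tested at neither time. For Wnt10b, with 17 counts in vehicle and 1 in treated libraries at 24 h, the test of the difference between times was passed (log2 -3.01 ± 1.06, adjusted p = 0.0229). That call rests on very few reads: without replicate 1 of either 24 h group, or without treated replicate 3 at 24 h, adjusted p was 0.0638 to 0.0675, and without treated replicate 2 at 24 h the value was -5.01.

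**Figure D2:**
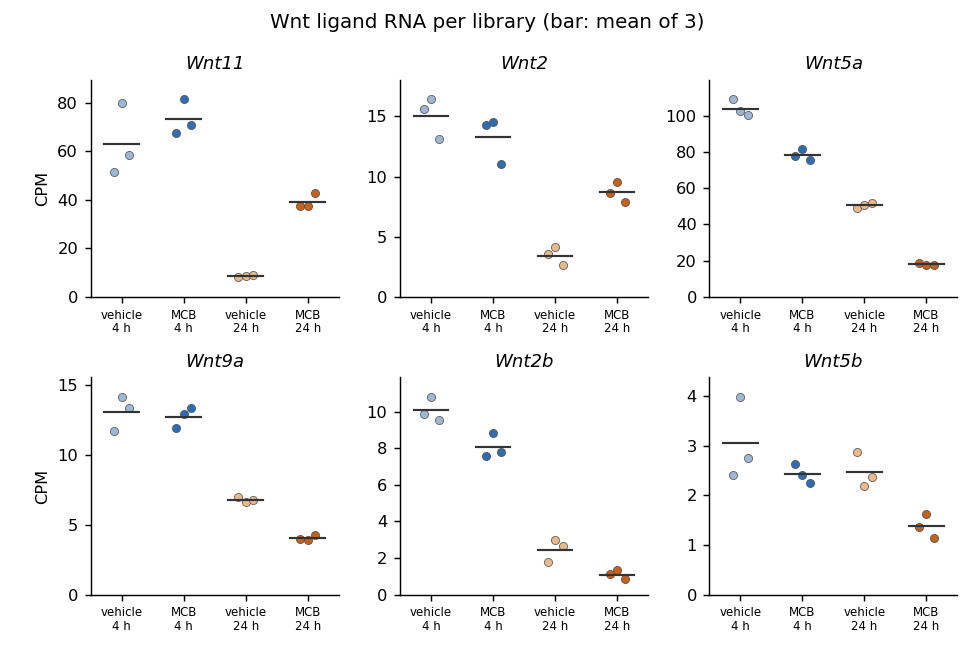
CPM (vertical axis, from 0) of 6 Wnt ligands in each of the 12 libraries, by group, with a bar at the mean of 3. Wnt11 and Wnt2 are lowest in vehicle at 24 h and higher with treatment, while Wnt5a is below vehicle in treated libraries at both times.

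Levels of different genes were compared as deposited FPKM, which the authors scaled for each time separately. In vehicle at 4 h the ligand order was Wnt11 at 14.9 ± 3.5 FPKM (SD, n = 3), Wnt5a at 12.9 ± 0.557, Wnt2 at 6.49 ± 0.750 and Wnt9a at 3.81 ± 0.358 FPKM, with Wnt11 and Wnt5a within their spread. In vehicle at 24 h Wnt5a led at 6.17 ± 0.159 FPKM, followed by Wnt11 at 2.0 ± 0.0859 and Wnt9a at 1.95 ± 0.0567 FPKM, which were within their spread. In treated cells at 24 h Wnt11 led at 8.97 ± 0.681 FPKM, ahead of Wnt2 at 3.65 ± 0.350 and Wnt5a at 2.20 ± 0.0838 FPKM. Wnt11 made up 14.5, 14.6 and 16.0% of the summed Wnt FPKM in vehicle at 24 h and 51.5, 50.6 and 56.4% in treated libraries. Wnt5a went the other way, from 44.7, 46.1 and 48.1% to 13.8, 12.7 and 12.4%. The summed Wnt FPKM itself was 13.4, 13.4 and 13.1 in vehicle and 16.7, 16.9 and 17.3 in treated libraries, a far smaller shift than that of its makeup.

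**Figure D3:**
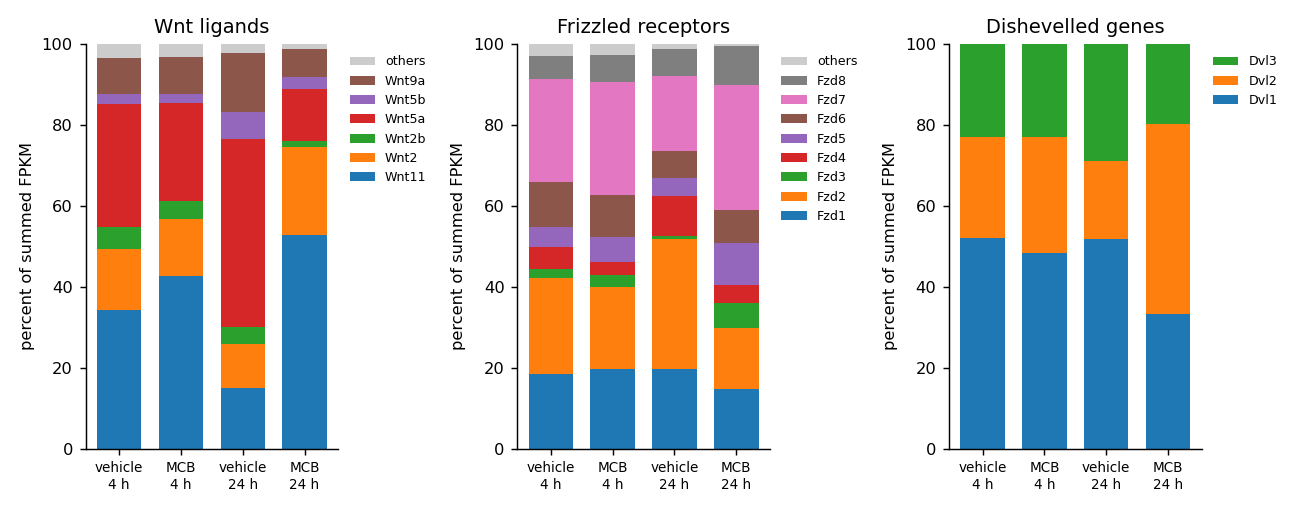
Share of each gene in the summed FPKM of its family (vertical axis, percent), as the mean of 3 libraries in each group, for Wnt ligands, frizzleds and dishevelleds. Wnt11 takes 15.0% of ligand FPKM in vehicle and 52.9% in treated cells at 24 h, Fzd2 takes 32.1% and 15.1% of frizzled FPKM, and Dvl2 takes 19.4% and 46.9% of dishevelled FPKM.

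Most frizzled RNAs fell, some of them by 4 h. At that time 3 of 9 tested frizzleds were called, each lower, where 7.16% of all genes were called and 3.71% were lower. At 24 h 8 of 9 fell and 1, Fzd3, rose, where 74.7% of all genes were called and 38.0% were lower, and 1 of the 8, Fzd9, passed the filter through its vehicle libraries. Fzd4 (ENSMUSG00000049791, chr7:89053563-89062342 in GRCm39), a receptor known for vessel growth as the receptor of Norrin, was at 30.3, 29.9 and 31.0 CPM in vehicle and 14.3, 12.2 and 14.5 CPM in treated libraries at 4 h. At 24 h the values were 62.3, 57.6 and 65.9 CPM in vehicle and 11.2, 11 and 7.67 CPM in treated libraries. Vehicle cells thus held more Fzd4 RNA at 24 h than at 4 h, and treated cells did not. The 4 h fall of 2.22-fold (log2 -1.15 ± 0.11, adjusted p = 5.99e-05) was the largest among the members called at that time and passed under every alternative run. At 24 h the fall was 6.23-fold (log2 -2.64 ± 0.12, adjusted p = 3.91e-09), and the difference between times was -1.48 ± 0.16 (adjusted p = 4.37e-07).

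Fzd2, a receptor for Wnt5a among others, was at 64.3, 75.7 and 82.0 CPM in vehicle and 41.5, 54.5 and 47.9 CPM in treated libraries at 4 h. At 24 h it was at 113.8, 104.1 and 117.8 CPM in vehicle and 18.1, 20.6 and 15.1 CPM in treated libraries. The groups were apart at both times, by far more at 24 h. Fzd2 fell by 0.62 at 4 h on the log2 scale (SE 0.12, adjusted p = 0.00909, but 0.052 without treated replicate 1 and 0.0511 without treated replicate 3) and by 2.64 at 24 h (SE 0.10, adjusted p = 5.95e-10). Fzd6, known from planar polarity of hair and skin, was at 49.4, 43.5 and 43.6 CPM in vehicle and 31.2, 33.7 and 29.9 CPM in treated libraries at 4 h. After 24 h it was at 31.7, 29.3 and 32.0 CPM in vehicle and 10.6, 14.4 and 13.3 CPM in treated libraries. Its treated libraries were low at both times (log2 -0.53 ± 0.10, adjusted p = 0.00698, at 4 h, or 0.0603 without treated replicate 3, and -1.28 ± 0.10, adjusted p = 4.52e-10, at 24 h).

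Fzd1 was at 63.3, 61.6 and 70.1 CPM in vehicle and 49.4, 53.7 and 55.1 CPM in treated libraries at 4 h, and at 84.3, 64.1 and 88.0 against 23.4, 19.4 and 16.8 CPM at 24 h. Fzd7 was at 100.6, 92.6 and 98 CPM in vehicle and 76.5, 82.0 and 84.6 CPM in treated libraries at 4 h, and at 75.9, 82.4 and 77.8 against 46.8, 47.0 and 40.9 CPM at 24 h. For both of these receptors, close relatives of Fzd2, treated libraries lay below vehicle at both times. The 4 h values missed the threshold (Fzd1 log2 -0.30, adjusted p = 0.0664, and Fzd7 log2 -0.26, adjusted p = 0.08). Both were called at 4 h with scaling by library totals (adjusted p = 0.0305 and 0.0356). At 24 h Fzd1 fell by 1.99 on the log2 scale (SE 0.19) and Fzd7 by 0.81 (SE 0.06), with adjusted p = 0.000267 and 4.64e-10.

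Fzd8 was at 23.6, 29.2 and 32.3 CPM in vehicle and 23.1, 26.9 and 25.7 CPM in treated libraries at 4 h, and at 38.4, 36.8 and 41.7 against 20.3, 19.1 and 16.7 CPM at 24 h. Fzd5, close in sequence to Fzd8, was at 30.7, 26.7 and 29.0 CPM in vehicle and 25.9, 27.1 and 28.8 CPM in treated libraries at 4 h, and at 31.2, 29.1 and 29.6 against 23.4, 23.5 and 21.8 CPM at 24 h. The 4 h groups overlapped for both, and the 24 h groups did not. The 24 h fall was 2.09-fold for Fzd8 (log2 -1.07 ± 0.08, adjusted p = 5.62e-10) and 1.31-fold for Fzd5 (log2 -0.39 ± 0.07, adjusted p = 7.36e-05). Fzd9 was at 5.73, 6.10 and 4.56 CPM in vehicle and 4.38, 3.93 and 3.80 CPM in treated libraries at 4 h, and at 2.83, 1.95 and 1.81 against 0.165, 0.498 and 0.310 CPM at 24 h, a log2 fold change of -2.71 ± 0.37 (adjusted p = 2.28e-06). Fzd10 had 51 counts in all and was not tested at either time.

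Fzd3, a receptor known for guiding axons and for planar polarity, was at 28.4, 21.8 and 20.6 CPM in vehicle and 24.7, 23.0 and 24.2 CPM in treated libraries at 4 h. The 24 h values were 11.8, 11.7 and 12.2 CPM in vehicle and 23.4, 23.2 and 28.3 CPM in treated libraries. The treated libraries at 24 h stood at the level of the 4 h libraries, and the vehicle libraries at 24 h below it. Fzd3 rose 2.08-fold at 24 h (log2 1.06 ± 0.09, adjusted p = 4.84e-09), and its response differed from that at 4 h (difference 1.05 ± 0.16, adjusted p = 2.86e-05).

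Per length, Fzd2 led the frizzleds in vehicle at 24 h at 29.2 ± 1.91 FPKM (SD, n = 3), ahead of Fzd1 at 18.0 ± 2.97 and Fzd7 at 16.6 ± 0.649 FPKM, which were within their spread. In treated cells Fzd7 led at 9.39 ± 0.734 FPKM, followed by Fzd2 at 4.65 ± 0.719 and Fzd1 at 4.49 ± 0.763 FPKM, again within their spread. The summed frizzled FPKM was 93.0, 84.6 and 95.5 in vehicle and 31.7, 32.2 and 27.8 in treated libraries at 24 h, and 80.6, 80.5 and 85.2 against 58.6, 65.9 and 64.2 at 4 h.

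Of the ROR receptors, tyrosine-kinase-like proteins that bind Wnt5a, Ror1 was called lower at both times and Ror2 at 24 h. Ror1 was at 55.6, 43.8 and 53.4 CPM in vehicle and 27.8, 29.4 and 27.8 CPM in treated libraries at 4 h. By 24 h it stood at 29.1, 25.8 and 30.2 CPM in vehicle and 5.86, 4.51 and 2.61 CPM in treated libraries. The groups were apart at both times, and the 4 h call passed under every alternative run. Ror1 fell by 0.85 on the log2 scale at 4 h (SE 0.11, adjusted p = 0.000644) and by 2.71 at 24 h (SE 0.23, adjusted p = 3.53e-05). Ror2 was at 42.6, 41.6 and 39.7 CPM in vehicle and 38.5, 46.2 and 45.3 CPM in treated libraries at 4 h, and at 29.4, 27.2 and 24.2 against 11.9, 15.3 and 13.7 CPM at 24 h. Its 4 h groups overlapped (log2 0.07 ± 0.10, adjusted p = 0.712), and at 24 h it fell by 0.98 (SE 0.10, adjusted p = 3.13e-08), a response that differed from that at 4 h (-1.05 ± 0.15, adjusted p = 7.95e-06). The summed FPKM of the 2 genes was 11.5, 10.4 and 10.5 in vehicle and 3.63, 4.17 and 3.49 in treated libraries at 24 h, and the share of Ror1 in it was 42.1, 41.2 and 47.9% against 26.6, 17.8 and 12.3%.

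Of the co-receptors Lrp5 and Lrp6, only Lrp5 was called at 24 h in the main fit. Lrp5 was at 91.8, 102.2 and 105.5 CPM in vehicle and 98.4, 120.1 and 110.2 CPM in treated libraries at 4 h, and at 130.7, 126.6 and 137.8 against 82.5, 79.1 and 76.1 CPM at 24 h. Lrp6 was at 143.0, 128.7 and 140.1 CPM in vehicle and 134.3, 137.4 and 141.4 CPM in treated libraries at 4 h, and at 131.3, 138.6 and 144.4 against 144.8, 142.2 and 139.3 CPM at 24 h. Only the 24 h groups of Lrp5 were apart. Lrp5 fell by 0.74 on the log2 scale at 24 h (SE 0.05, adjusted p = 1.22e-10), whereas the log2 fold change of Lrp6 was 0.03 ± 0.05 (adjusted p = 0.523), and whether the responses of these genes differ was not tested. Scaled by library totals, under which the median of all genes at 24 h was -0.21, Lrp6 was at -0.16 and called lower (adjusted p = 0.00637).

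**Figure D4:**
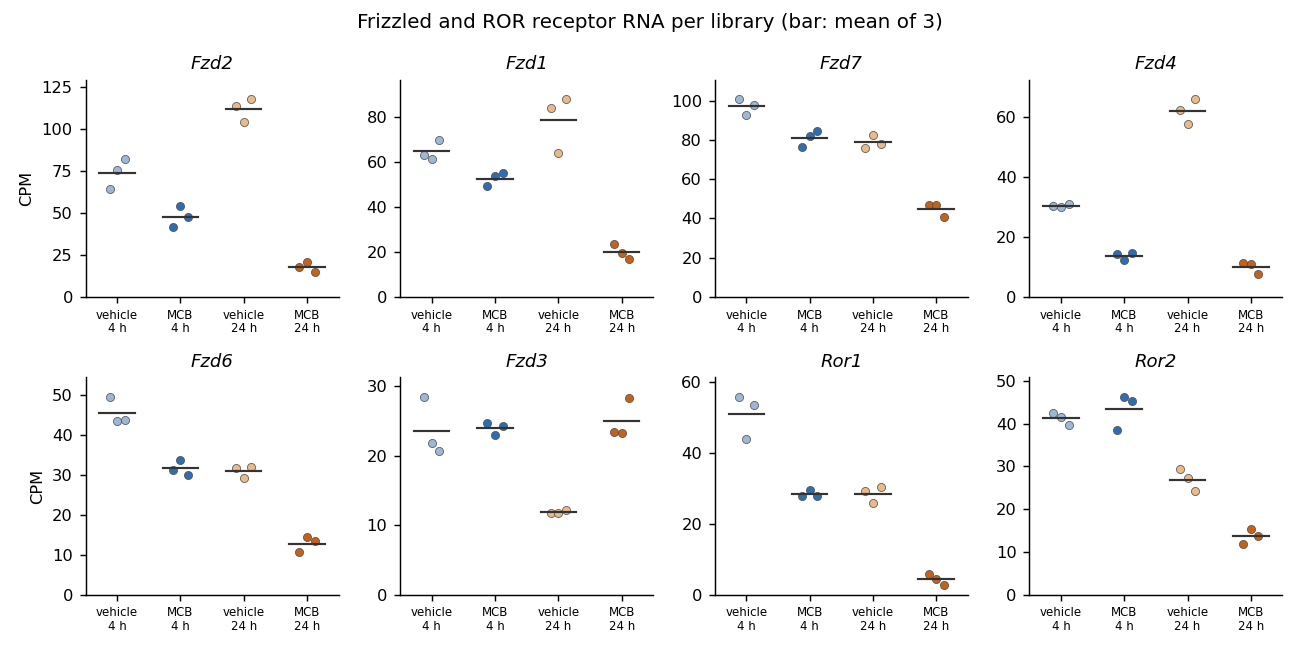
CPM (vertical axis, from 0) of 6 frizzleds and both ROR receptors in each of the 12 libraries, by group, with a bar at the mean of 3. Fzd2 and Fzd4 are highest in vehicle at 24 h and at their lowest in treated cells at 24 h, and Fzd3 shows the reverse order at 24 h.

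Of the secreted modulators, Sfrp1, Sfrp2, Sfrp4 and Dkk3 fell at 24 h, where 38.0% of all genes did. Dkk2 and Rspo2 were called lower too, but they passed the filter through vehicle libraries alone, so that direction was fixed by the filter. At 4 h none of 7 was called by edgeR, by DESeq2 or by limma on FPKM, and 2 had an unadjusted p under 0.05. Sfrp1 (ENSMUSG00000031548, chr8:23901518-23939648 in GRCm39) binds Wnt ligands outside the cell. It was at 81.3, 73.3 and 109.4 CPM in vehicle and 77.6, 64.1 and 90.4 CPM in treated libraries at 4 h. At 24 h the values were 284.7, 203.2 and 317.1 CPM in vehicle and 40.8, 32.3 and 31.2 CPM in treated libraries. Vehicle cells at 24 h were above all others, with replicate 2 the lowest of the 3, and treated cells at 24 h were below all others. The 24 h fall was 7.77-fold (log2 -2.96 ± 0.24, adjusted p = 0.000374), against -0.19 ± 0.16 at 4 h (adjusted p = 0.53), and the difference was -2.76 ± 0.31 (adjusted p = 3.54e-05).

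Dkk3, a divergent dickkopf, was at 10.7, 9.80 and 16.7 CPM in vehicle and 11.9, 9.34 and 13.9 CPM in treated libraries at 4 h, and at 30.0, 15.1 and 30.6 against 4.45, 3.05 and 1.91 CPM at 24 h. Sfrp2, a relative of Sfrp1, was at 0.914, 1.04 and 1.69 CPM in vehicle and 1.68, 1.26 and 2.40 CPM in treated libraries at 4 h, and at 6.19, 4.15 and 10.6 against 1.03, 0.896 and 0.532 CPM at 24 h. As for Sfrp1, replicate 2 was the lowest vehicle library at 24 h for both, yet above every treated library. At 24 h Dkk3 fell 8.06-fold (log2 -3.01 ± 0.47, adjusted p = 0.00391) and Sfrp2 fell 8.43-fold (log2 -3.08 ± 0.44, adjusted p = 0.000485). Dkk2, an LRP-binding antagonist, was at 5.42, 6.25 and 4.67 CPM in vehicle and 3.96, 4.48 and 4.16 CPM in treated libraries at 4 h, and at 6.11, 5.01 and 6.41 against 0.165, 0.199 and 0.0443 CPM at 24 h. It had 592 counts in vehicle and 11 in treated libraries at 24 h, a 40.1-fold difference (log2 -5.33 ± 0.32, adjusted p = 1.17e-11).

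Sfrp4 had group means under 1 FPKM. Its log2 fold change was -0.52 ± 0.20 at 4 h (adjusted p = 0.149) and -1.72 ± 0.28 at 24 h (adjusted p = 1.69e-05). The R-spondins, which strengthen Wnt signals, were barely detected. Rspo2 had 79 counts in vehicle and 0 in treated libraries at 24 h. Against the limit of 3 counts that 0 allows over the group, 0.039 CPM, its vehicle mean of 0.789 CPM makes it at least 20.2-fold lower, a limit that covers counting error only. Rspo3 had 70 and 10 counts in these groups and Rspo1 had 24 and 9, and neither was tested at 24 h. For Rspo3 the test of the difference between times was passed (log2 -2.38 ± 0.97, adjusted p = 0.0468), but leaving out 1 library brought adjusted p to between 0.0532 and 0.14 for 9 of the 12 libraries.

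**Figure D5:**
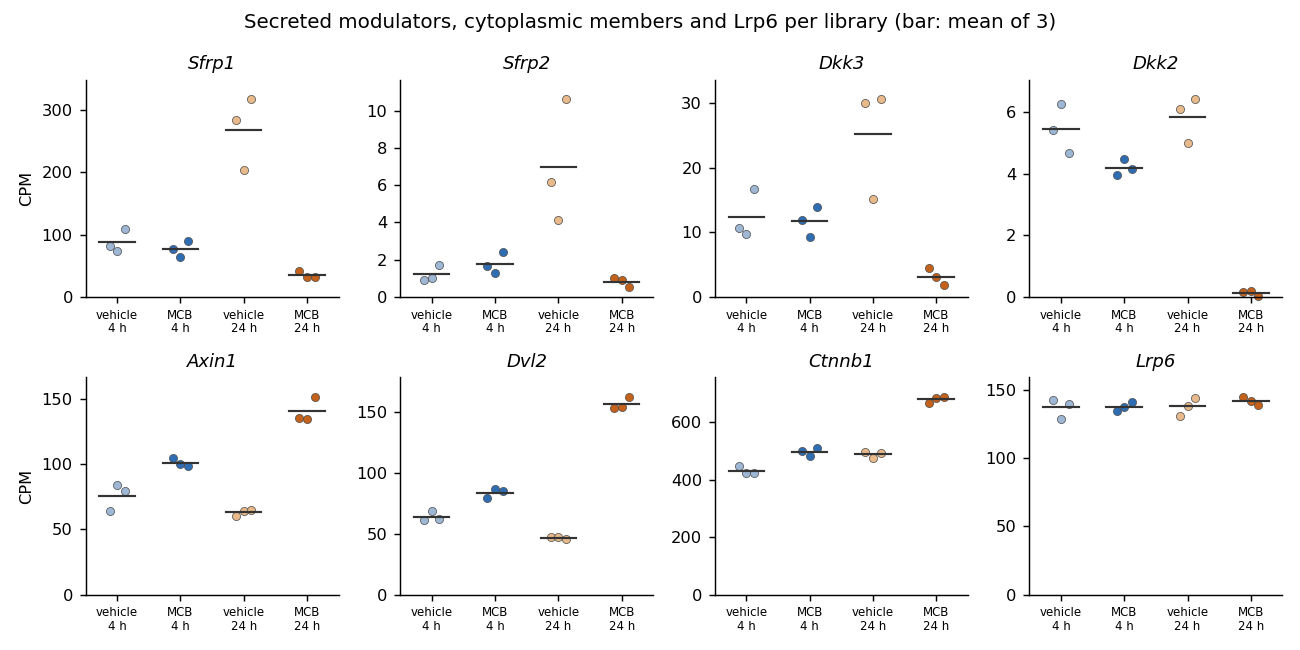
CPM (vertical axis, from 0) of 4 secreted modulators (upper panels) and of Axin1, Dvl2, Ctnnb1 and Lrp6 (lower panels) in each of the 12 libraries, by group, with a bar at the mean of 3. Sfrp1, Sfrp2, Dkk3 and Dkk2 are lowest in treated cells at 24 h, where Axin1, Dvl2 and Ctnnb1 are highest, and Lrp6 lies between 128.7 and 144.8 CPM in all 12.

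The membrane ligases mark frizzleds for breakdown. Znrf3 was at 42.4, 41.0 and 36.7 CPM in vehicle and 39.8, 45.9 and 45.0 CPM in treated libraries at 4 h, and at 16.8, 18.5 and 15.6 against 23.8, 23.5 and 19.9 CPM at 24 h. Its 24 h groups were apart, both below the 4 h libraries. It rose by 0.40 ± 0.09 on the log2 scale at 24 h (adjusted p = 0.000803), a call that ended with scaling by library totals (log2 0.20, adjusted p = 0.0676). Rnf43 had 85 counts in all. The test of its difference between times was barely passed (log2 2.60 ± 1.08, adjusted p = 0.0491), and the call ended when any of 8 single libraries was left out (adjusted p of 0.086 to 0.146) and with DESeq2 (adjusted p = 0.0544).

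In the cytoplasm, the scaffold gene Axin1 and the dishevelled gene Dvl2 rose at both times, while Nkd1 and Nkd2 fell at 24 h. Axin2 was called lower at 24 h too, but it passed the filter through its vehicle libraries. Dvl2 (ENSMUSG00000020888, chr11:69891421-69903127 in GRCm39) encodes 1 of 3 dishevelleds, which pass the signal on from frizzleds. It was at 61.5, 69.0 and 62.2 CPM in vehicle and 79.1, 87.1 and 85.4 CPM in treated libraries at 4 h, and at 47.6, 47.4 and 45.7 against 153.9, 154.5 and 162.4 CPM at 24 h. Treated libraries were above vehicle at both times, and at 24 h above all others. The rise was 0.39 ± 0.09 on the log2 scale at 4 h (adjusted p = 0.0208, or 0.0803 to 0.121 without vehicle replicate 3, treated replicate 2 or treated replicate 3) and 1.74 ± 0.05 at 24 h (3.33-fold, adjusted p = 1.53e-16). The responses differed by 1.36 ± 0.10 (adjusted p = 2.15e-09).

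Dvl1 was at 90.0, 113.1 and 116.6 CPM in vehicle and 111.8, 113.9 and 108.9 CPM in treated libraries at 4 h, and at 99.2, 103.4 and 95.8 against 93.4, 89.1 and 83.5 CPM at 24 h. Dvl3 was at 58.5, 61.1 and 61.3 CPM in vehicle and 66.8, 71.8 and 65.9 CPM in treated libraries at 4 h, and at 67.8, 73.4 and 71.2 against 67.4, 67.2 and 66.1 CPM at 24 h. Both shifted far less than Dvl2 in these values. Dvl1 fell by 0.17 at 24 h on the log2 scale (SE 0.05, adjusted p = 0.00656, or 0.0881 in a fit of all 12 libraries), and Dvl3 was not called at 24 h (log2 -0.09, adjusted p = 0.142), where only scaling by library totals called it lower (log2 -0.28, adjusted p = 0.000115). In the summed dishevelled FPKM, the share of Dvl2 was 19.9, 19.0 and 19.3% in vehicle and 45.6, 46.4 and 48.8% in treated libraries at 24 h. The sum was 36.4, 37.8 and 35.9 FPKM in vehicle and 51.0, 50.1 and 50 FPKM in treated libraries.

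Axin1, the scaffold of the destruction complex, was at 63.9, 84.1 and 79.6 CPM in vehicle and 104.6, 100.1 and 98.6 CPM in treated libraries at 4 h, and at 60.4, 64.4 and 64.8 against 135.8, 135.0 and 151.5 CPM at 24 h. Treated libraries were above vehicle at both times. The rise at 24 h was 2.22-fold (log2 1.15 ± 0.05, adjusted p = 3.16e-13). At 4 h it was 0.41 ± 0.10 (adjusted p = 0.0345), and that call ended under scaling by library totals (adjusted p = 0.061), with limma on FPKM (0.0625 and 0.0639), and without any 1 treated library or vehicle replicate 3 (0.0632 to 0.124). Axin2, a known target gene of beta-catenin, had 111 counts in vehicle and 14 in treated libraries at 24 h, and fell by 2.55 on the log2 scale (SE 0.51, adjusted p = 0.000151). At 4 h it had 137 and 95 counts and was not called (log2 -0.46, adjusted p = 0.403). The known beta-catenin targets among the members did not share a direction at 24 h. Of 5 tested, Axin2 and Nkd1 fell, Tcf7 and Znrf3 rose and Lef1 was not called, with a median of 0.29. The share called was 80%, beside 74.7% of all genes. Both the share and the median include Axin2, whose direction was fixed by the filter, which it passed through its vehicle libraries. Axin1 held 98.5, 99.2 and 98.8% of the axin FPKM in vehicle at 24 h.

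Ctnnb1, which encodes beta-catenin, was at 447.4, 422.9 and 421.7 CPM in vehicle and 499.8, 484.3 and 508.9 CPM in treated libraries at 4 h, and at 497.0, 477.2 and 491.8 against 667.2, 686.1 and 687.4 CPM at 24 h. No group overlapped its control. The rise at 24 h was 1.39-fold (log2 0.47 ± 0.04, adjusted p = 7.50e-09). At 4 h the value of 0.21 ± 0.08 was not called (adjusted p = 0.125), though it was in a fit of all 12 libraries (0.0227) and without vehicle replicate 1 (0.0277). Nkd1, a dishevelled-binding antagonist and beta-catenin target, was at 2.71, 4.16 and 3.98 CPM in vehicle and 5.10, 5.48 and 5.04 CPM in treated libraries at 4 h, and at 5.66, 3.23 and 6.17 against 3.22, 2.99 and 2.84 CPM at 24 h. Its relative Nkd2 was at 33.8, 34.4 and 35.2 CPM in vehicle and 35.2, 30.5 and 35 CPM in treated libraries at 4 h, and at 28, 27.3 and 30.5 against 12.9, 12 and 11.7 CPM at 24 h. For Nkd1 treated libraries lay above vehicle at 4 h and below it at 24 h. Nkd1 was at 0.53 ± 0.19 at 4 h (not called, adjusted p = 0.115) and fell by 0.75 at 24 h (SE 0.22, adjusted p = 0.00522), with a difference of -1.27 ± 0.31 (adjusted p = 0.00177). Nkd2 fell by 1.23 at 24 h (SE 0.09, adjusted p = 1.14e-10).

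Of the nuclear factors that carry beta-catenin to DNA, none of 4 was called at 4 h by edgeR, DESeq2 or limma, and 0 had an unadjusted p under 0.05. Tcf7 was at 7.92, 7.47 and 6.32 CPM in vehicle and 6.10, 8.41 and 5.53 CPM in treated libraries at 4 h, and at 1.56, 1.38 and 1.56 against 3.22, 3.35 and 3.59 CPM at 24 h. Tcf7l1, known mainly as a repressor, was at 30.4, 37.2 and 41.9 CPM in vehicle and 33.6, 45.8 and 41.5 CPM in treated libraries at 4 h, and at 39.9, 43.9 and 39.8 against 25.2, 29.9 and 26.7 CPM at 24 h. These 2 factors went in opposite directions at 24 h without overlap of their groups. Tcf7 rose 2.23-fold (log2 1.16 ± 0.22, adjusted p = 8.05e-05) and Tcf7l1 fell 1.51-fold (log2 -0.60 ± 0.07, adjusted p = 5.07e-07). Lef1, at 0.943, 0.791 and 0.752 CPM in vehicle and 1.15, 0.896 and 1.02 CPM in treated libraries at 24 h, was not called (log2 0.29 ± 0.33, adjusted p = 0.443). Tcf7l2 was not called either (log2 -0.22 ± 0.11, adjusted p = 0.0732), though it was called lower without treated replicate 1, without a filter and with library totals (adjusted p = 0.0213, 0.04 and 0.00221). Per length, Tcf7l1 made up most of the LEF and TCF FPKM in every group, from a mean share of 66.0% in vehicle at 4 h to 82.2% in vehicle at 24 h.

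Vehicle cells themselves differed between 4 h and 24 h, and the labels do not say whether these libraries differ in more than time. The deposited group names differ, C_C and C_D at 4 h but KDC_C and KDC_D at 24 h, and the labels do not explain this. Of 44 members tested, 9 were higher and 21 lower at 24 h. Over all 16341 genes tested 54.3% were called, 27.4% higher and 27.0% lower. Among the ligands 8 of 10 were lower and none higher, led among those described in full by Wnt11 (log2 -2.86 ± 0.14, adjusted p = 1.52e-10), Wnt2 (-2.13 ± 0.16) and Wnt2b (-2.04 ± 0.18). Lef1 (-2.45 ± 0.20) and Tcf7 (-2.26 ± 0.18) were lower as well. The 8 ligands include Wnt10a, Wnt10b and Wnt7a, with vehicle means of 0.254, 0.163 and 0.161 CPM at 24 h and 1.08, 1.11 and 1.51 CPM at 4 h. These were too low to be tested at 24 h and passed the filter through 4 h libraries. Their direction was thus fixed by the filter. Sfrp2 (2.53 ± 0.35), Sfrp1 (1.61 ± 0.21) and Fzd4 (1.03 ± 0.11) were higher, as was Dkk3 (1.03 ± 0.33, adjusted p = 0.0254), whose call ended without any 1 of 4 vehicle libraries (adjusted p of 0.0797 to 0.0971). The difference of the responses, 24 h minus 4 h, was called for 35 of 44 members, 8 higher and 27 lower. For this difference 53.8% of 16341 genes were called, 26.7% higher and 27.1% lower. The 24 h response, this difference and the vehicle change share the vehicle libraries at 24 h, so for Wnt11 the values of 2.17, 1.96 and -2.86 are not independent, nor are those of -2.96, -2.76 and 1.61 for Sfrp1.

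Pathway genes outside the 48 were read from lists of textbook roles. The lists were chosen with earlier results of these data known, so their counts and shares are descriptive only. Of 15 tested genes for Wnt secretion, other receptors and modulators, 14 fell at 24 h and none rose (Gpc3, at 0.08, was not called), where 38.0% of all genes fell and 36.7% rose, and the median log2 fold change was -0.71. Apcdd1, a membrane inhibitor, was at -2.66 ± 0.11 (adjusted p = 4.49e-14), Frzb, a further Wnt-binding secreted protein, at -1.93 ± 0.13 and the glypican Gpc6 at -1.57 ± 0.15. None of the 15 was called at 4 h by edgeR, DESeq2 or limma, with 1 at an unadjusted p under 0.05. Of 30 tested destruction complex and beta-catenin partner genes, 15 rose and 12 fell at 24 h, 90% called where 74.7% of all genes were, with a median of 0.25. Among those with a mean of at least 1 FPKM in the higher group, the 3 largest changes were falls: Apc2 at -2.81 ± 0.13, Amer1 at -1.74 ± 0.16 and the coactivator gene Bcl9l at -1.50 ± 0.08. At 4 h 1 of 29 rose, Bcl9 (0.54 ± 0.13, adjusted p = 0.0275), and 1 fell, Apc2 (-0.84 ± 0.16, adjusted p = 0.00853), named after its value was seen.

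Of 25 tested genes of the planar polarity and calcium branch, 5 rose (Celsr3, Rock1, Camk2d, Prickle2 and Camk2g, named after their values were seen) and 11 fell at 24 h, with a median of -0.14. The share called, 64%, was below the 74.7% of all genes. Vangl2, a core planar polarity gene, was at -1.60 ± 0.13, the calcium-responsive factor gene Nfatc4 at -1.04 ± 0.13 and Invs at -0.97 ± 0.12. At 4 h none of the 25 was called by edgeR, DESeq2 or limma, with 1 at an unadjusted p under 0.05. Known beta-catenin target genes outside the 48 did not share a direction: 8 of 19 rose and 11 fell at 24 h, and 3 of 18 rose and 7 fell at 4 h. The share called was 100% at 24 h, beside 74.7% of all genes, and 55.6% at 4 h, beside 7.16%. Since the list was chosen with earlier results of these data known, no conclusion is drawn from these shares. Their median was -0.57 at 24 h and -0.19 at 4 h. Plaur, the urokinase receptor gene, was at 2.73 ± 0.05, while Birc5, a survival gene of dividing cells, was at -4.03 ± 0.17 and Ccn5 at -3.66 ± 0.55 at 24 h. At 4 h Id2 (-1.11 ± 0.12, adjusted p = 0.000187), Sox9 (-0.89 ± 0.11, adjusted p = 0.000496) and Birc5 (-0.79 ± 0.15, adjusted p = 0.00763) had fallen, and the 3 that rose, named after their values were seen, were Ppard (0.68 ± 0.09), Plaur (0.45 ± 0.11) and Jun (0.40 ± 0.10).

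In the authors' deposited table, 7 members passed an adjusted p under 0.05 at 4 h and 35 at 24 h. All 7 at 4 h and 34 at 24 h were the members called by edgeR, with the same sign, and the other 1 at 24 h was Rspo3.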

How the data were processed

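Per the submitters' processing notes, the tools were featureCounts 1.5.0-p3, HISAT2 2.0.5 and DESeq2, and the genome was GRCm39 (mm39). Per the file headers, the authors deposited 1 table per time with raw counts per gene and library, a size-factor-scaled signal, FPKM, and their own log2 fold changes with p-values. Each time was normalized separately by the authors. The strandedness of the library kit is not given in the sources used here, so sense and antisense reads cannot be told apart.

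Tests used the raw counts and edgeR 4.0.16 in R 4.3.3 (quasi-likelihood), with TMM scaling, the default filter of low counts, robust dispersions and Benjamini-Hochberg adjustment over all genes tested. Each time was fitted on its 6 libraries, and the difference of responses and the vehicle change on all 12. The script was tested on simulated counts. Members called in any response test with a mean of at least 1 FPKM in any of the 4 groups are given per library. By this rule Wnt2b, Wnt5b and Fzd9 were included, though under 1 FPKM in both groups at 24 h. Up to 3 called genes of each other list are named. Members and lists were chosen with earlier results of these data known. Alternatives were DESeq2 1.42.0, its size factors, library totals, other filters, limma-trend (limma 3.58.1) on log2(FPKM + 0.1) and log2(FPKM + 1), a replicate block, and each library left out. Promoter windows came from RefSeq (GRCm38.p6), a build other than that of the deposited coordinates.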

Additional observations from a re-analysis of the deposited data

Results flagged for a closer look

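For 35 of 44 members the response at 24 h differed from that at 4 h in the edgeR test of the difference itself, where 53.8% of all genes tested did. The log2 response at 24 h minus that at 4 h was above 0 for Wnt11 (1.96), Wnt2 (1.53), Fzd3 (1.05), Rnf43 (2.60), Axin1 (0.74), Ctnnb1 (0.27), Dvl2 (1.36) and Tcf7 (1.28). Among ligands it was below 0 for Wnt10b (-3.01), Wnt2b (-0.82), Wnt5a (-1.07) and Wnt9a (-0.71). Among receptors it was below 0 for Fzd1 (-1.68), Fzd2 (-2.01), Fzd4 (-1.48), Fzd5 (-0.31), Fzd6 (-0.75), Fzd7 (-0.55), Fzd8 (-0.89), Fzd9 (-2.27), Lrp5 (-0.87), Ror1 (-1.86) and Ror2 (-1.05). Each secreted modulator tested was below 0: Dkk2 (-4.94), Dkk3 (-2.93), Rspo2 (-6.89), Rspo3 (-2.38), Sfrp1 (-2.76), Sfrp2 (-3.63) and Sfrp4 (-1.20). The value for Rspo2, with 0 counts in treated libraries at 24 h, depends on the prior count of the fit. In the cell, it was below 0 for Axin2 (-2.09), Dvl3 (-0.26), Nkd1 (-1.27), Nkd2 (-1.19) and Tcf7l1 (-0.74). When 1 library was left out, the difference missed the threshold for Fzd5 in 5 of 12 cases, for Dvl3 in 3, for Wnt10b in 3 and for Wnt2b in 2, as well as for Rspo3 and Rnf43. Scaling by library totals ended the calls of Ctnnb1 (0.13, adjusted p = 0.223) and Rnf43 (adjusted p = 0.0634). Limma on FPKM with a pseudocount of 1 ended those of Axin2, Wnt2b, Wnt10b, Rspo3 and Rnf43 (adjusted p = 0.226, 0.416, 0.942, 0.124 and 0.256), and with 0.1 those of the same genes other than Wnt2b (0.0504, 0.433, 0.093 and 0.175). Without a filter the calls of Fzd5 and Dvl3 ended (0.0755 and 0.067), with the replicate block those of Rspo3 and Rnf43 (0.0673 and 0.0758), and with DESeq2 that of Rnf43 (0.0544).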

How the results depend on the processing

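Among member values of the 4 comparisons that were called in the main fit or under an alternative, 2 changed sign. One was Lrp6 at 24 h with library totals (-0.16, against 0.03). The other was the difference of responses of Wnt10b in limma on FPKM with a pseudocount of 1 (0.01, against -3.01). Sign changes of values called in neither fit were not counted. Members higher at 4 h were 1 with library totals and 1 with limma at either pseudocount, against 2. Genes called at 4 h were 1953 with the replicate block and 2198 in a fit of all 12 libraries, against 1098. With 1 library left out, genes called at 4 h were 443 to 1760, members higher 0 to 3 and members lower 2 to 6, with 443 genes without treated replicate 3, 476 without treated replicate 2, 634 without treated replicate 1, 672 without vehicle replicate 3 and 1760 without vehicle replicate 1. The replicate block gave 2 members higher and 7 lower at 4 h (adding Fzd1 and Fzd7). Same-numbered libraries correlated in their deviations at 0.0878, 0.0832 and 0.109 at 4 h and 0.0133, 0.02 and -0.043 at 24 h, beside -0.108 to 0.0196 and -0.0799 to 0.0717 for libraries with different numbers. At 4 h every library correlated best with its own number, which is a hint from the data, but not every pair passed 0.1 and no label ties a number to a shared culture, so the numbers were not taken as pairs. Library totals put the median of all genes at -0.21 at 24 h and -0.14 for the difference, and the share of calls that were higher at 34.5% against 48.2% (4 h), 39% against 49.1% (24 h) and 40% against 49.6% (difference). Of the 10 members under the filter at 24 h, Rspo3, Wnt10b and Wnt4 were called lower in the fit without a filter (adjusted p = 0.000323, 0.0449 and 0.0329), and the other 7 were not called.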
